A study of Macaca mulatta with 38 samples.

Results

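Cultures of neural stem cells from the anterior and the posterior part of rhesus macaque (Macaca mulatta) fetal cortex at embryonic day 42 (E42) were compared on the first days after growth factor withdrawal. The comparison used 6 of the 38 libraries of the series, chosen by their labels: E42 Anterior on days 6, 7 and 8 in vitro, against E42 Posterior on the same days, with libraries of a day paired. The other libraries were E42 cultures on other days, and Frontal and Occipital cultures from embryonic day 77 (E77). They entered the same fit and served for later comparisons. All cells were wild type. Per the labels, dissociated cortical cells were plated on fibronectin-coated wells in 5% oxygen and grown with daily FGF2 up to day 5. From then on both E42 series stood without FGF2 in NeuroBasal medium with B27, BDNF and NT-3 (10 ng/ml each). RNA of each library came from 2 wells per condition. There was 1 library per region and day, and the labels do not say that the days came from separate animals or cultures. The p-values thus measure how far libraries depart from their group and from a shared effect of their day, pooled over all 38 libraries. That spread may be technical, and region cannot be told apart from fetus, dissection or culture run.

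Early cortical progenitors carry graded positional genes. Fibroblast growth factors from the rostral pole raise one set of transcription factors, and WNT and BMP signals from the caudomedial hem, with the orphan receptor NR2F1, favour another. Radial glia divide at the ventricle and give rise to intermediate progenitors, which express EOMES, and these give rise to glutamatergic neurons. The meninges, a sheet of fibroblasts from neural crest and mesoderm, lie directly on the early cortex and release retinoic acid and matrix proteins. FGF2 keeps progenitors dividing in culture, and its withdrawal lets them leave the cycle and differentiate.

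The 6 libraries held 25924161 to 38482028 counted reads, against 20149635 to 56363300 over all 38. Levels are CPM, counts relative to the TMM-scaled library size, and fold changes are log2 values of Anterior minus Posterior with the standard error (SE) of an edgeR fit of all 38 libraries with day as a block. A gene passed with an adjusted p under 0.05 in edgeR's quasi-likelihood test, over 20794 tested genes. The first principal component of the 6 libraries held 71.7% of the variance and separated the regions, and the second, with 13.4%, set day 8 apart in both. Of all tested genes 31.1% passed (6459), with 3311 (15.9%) higher and 3148 (15.1%) lower in Anterior. These shares of all genes are the measure for each list count of this comparison below. Of the 6459, 6403 had the same sign on all 3 days. The groups did not overlap for 41.2% of tested genes, 19.8% higher and 21.4% lower in Anterior. Large differences were mostly in 1 direction: of the 2279 genes that passed with at least 2-fold, 1791 were higher and 488 lower, and at 8-fold the counts were 611 and 29. The share of calls that were higher was 51.3% in edgeR and 34.2% in limma on log2(RPKM + 1), where the median over all genes lay at -0.10 instead of -0.04. In a bulk library, fewer cells of a type and less RNA of a gene per cell cannot be told apart.

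The label of cortical neural stem cells was checked against marker genes, and both regions held them. SOX2, a transcription factor of neural stem cells, stood at 479, 586 and 522 CPM in E42 Anterior, against 703, 722 and 640.2 CPM in E42 Posterior, in the order of days 6, 7 and 8 that all triplets below follow. HES5, a Notch target of neural progenitors, stood at 60.6, 68.7 and 23.9 CPM in Anterior and 47.8, 35.6 and 20.9 CPM in Posterior. All 3 Anterior libraries also held high levels of fibroblast and meningeal genes, which the labels do not mention. The 30 tested markers of these cells took 2.97, 1.88 and 2.44% of the counted reads in Anterior, against 0.0546, 0.0593 and 0.0487% in Posterior. No Anterior library lacked them, so no value without them can be given, and these shares stand beside every result below.

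Fibroblast genes were higher in Anterior. All 14 tested genes of the fibroblast list passed as higher, against 15.9% of all genes tested, with a median log2 fold change of 7.0 (all genes, -0.04). COL1A1, a chain of type I collagen, stood at 8783, 4562 and 6530.2 CPM in Anterior and 12.4, 10.6 and 9.61 CPM in Posterior (9.21 ± 0.50 on the log2 scale, adjusted p = 4.7e-12, edgeR). COL3A1, the chain of type III collagen, stood at 7333, 4722 and 6423 CPM in Anterior, against 7.09, 6.84 and 7.74 CPM in Posterior (9.71 ± 0.50). Day 7 had the lowest Anterior level of each gene, and even that lay far above every Posterior library. Lumican (LUM), a proteoglycan of collagen fibrils, was at 421, 347 and 382 CPM in Anterior and 1.38, 1.47 and 1.14 CPM in Posterior (8.17 ± 0.45). Decorin (DCN), of the same family, was at 919.8, 809 and 1012 and 7.09, 10.8 and 5.27 CPM (6.96 ± 0.54). The smallest difference was in PDGFRA, a receptor that glial progenitors also express, which stood at 477, 381 and 255 CPM in Anterior, against 107, 100.3 and 65.6 CPM in Posterior (2.02 ± 0.29). Per transcript length, on the authors' RPKM scale, COL3A1 averaged 1282 in Anterior and 1.60 in Posterior, while SOX2 averaged 37.9 and 52.2. The remaining list member, MFAP5, had at most 2 counts in any of the 6 libraries and was not tested.

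Meningeal genes were higher as well. Of 16 tested, 15 were higher in Anterior, with a median of 7.26. OGN, a small proteoglycan of meningeal fibroblasts, was at 819.6, 752 and 481 CPM in Anterior, against 0.521, 0.310 and 0.405 CPM in Posterior (10.69 ± 0.55, adjusted p = 2.3e-12, edgeR). Transcription factors of the meninges and the mesenchyme beneath the skull were near absent from Posterior. FOXC1, which the meninges need to form, stood at 91.1, 85.8 and 163 CPM in Anterior and 0.339, 0.387 and 0.516 CPM in Posterior (8.05 ± 0.22). TBX18 stood at 82.7, 76.0 and 50.5 CPM in Anterior and 0.0782, 0.232 and 0.111 CPM in Posterior (8.92 ± 0.35), and TBX15 at 33.3, 25.4 and 27.2 and 0.0782, 0.0516 and 0.0737 CPM (8.66 ± 0.55). OSR1, a mesodermal zinc finger factor, was at 49.5, 46.6 and 58.3 CPM in Anterior, against 0.104, 0.129 and 0.111 CPM in Posterior (8.74 ± 0.36). SLC6A13, a GABA and taurine transporter, was the 1 member that did not pass, with 119, 105 and 153 CPM in Anterior and 117, 98.6 and 115 CPM in Posterior (0.18 ± 0.14, adjusted p = 0.34, edgeR). TWIST2 was at 0 counts in every Posterior library, and Anterior was at least 11.2-fold higher against a floor of 3 counts over the Posterior group.

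**Figure D1:**
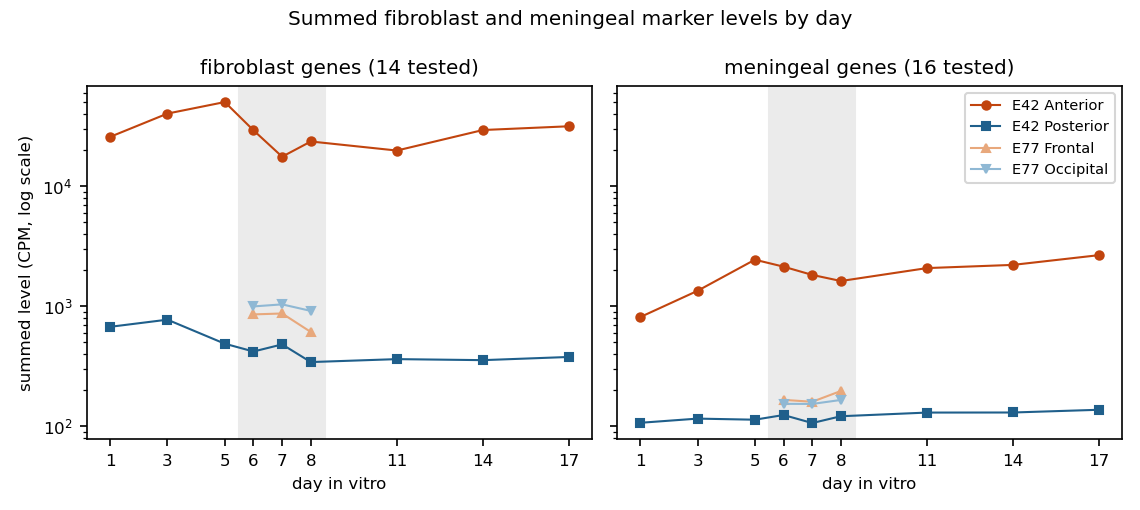
Summed CPM (log scale) of the tested fibroblast and meningeal genes against day in vitro, 1 point per library, with the transition days shaded. E42 Anterior lies above E42 Posterior on every day and above the E77 libraries on days 6 to 8.

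The same genes were high in E42 Anterior on the other days, as the plot of summed marker levels by day shows. The summed level of the genes of fibroblasts was 50187 CPM on day 5, 29206, 17606 and 23565 CPM on days 6, 7 and 8, and 31542 CPM on day 17. In E42 Posterior the sums were 488 CPM on day 5, 421, 482 and 343 CPM on days 6 to 8 and 379 CPM on day 17. The meningeal sums on days 6 to 8 were 2139, 1826 and 1624 CPM in Anterior and 124, 107 and 122 CPM in Posterior, and SLC6A13 made up most of the Posterior sums.

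The 12 largest rises by the naming rule were OGN, COL3A1, C7, ALDH1A3, PEAR1, ITIH2, ASPN, C20H16orf89, SCARA5, OMD, ITGBL1 and IGF2. C7, a complement component, stood at 43.9, 122 and 79.0 CPM in Anterior, against 0, 0.0774 and 0 CPM in Posterior, a ratio of counts of 2850.4 (95% interval 975 to 13825) for counting error. Asporin (ASPN), a proteoglycan that binds collagen, was at 264, 229 and 121 CPM in Anterior and 0.208, 0.155 and 0.0737 CPM in Posterior (10.41 ± 0.39). SCARA5, a ferritin receptor of fibroblasts, was at 25.3, 25.2 and 62.3 CPM in Anterior and 0.0261, 0.0516 and 0 CPM in Posterior, a ratio of 1235 (95% interval 422 to 5993). Osteomodulin (OMD) was at 7.20, 8.26 and 18.4 CPM in Anterior and 0, 0.0258 and 0 CPM in Posterior, a ratio of 1114 (95% interval 199 to 44038). IGF2, a fetal growth factor, was at 2244, 1644 and 1761 CPM in Anterior and 2.24, 3.25 and 2.28 CPM in Posterior (9.49 ± 0.48).

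Matrix genes beyond the marker lists were also higher in Anterior. Of 16 collagen genes 14 were higher and 1 lower, of 20 matrix glycoprotein and proteoglycan genes 17 were higher and 1 lower, and all 14 matrix enzyme genes were higher. Fibronectin (FN1) was at 7803, 4082 and 3316 CPM in Anterior, against 105, 107 and 73.6 CPM in Posterior (5.66 ± 0.37). Type VI collagen, a microfibril network, was represented by COL6A2 at 1634, 1109 and 929 CPM in Anterior and 27, 27.5 and 20.4 CPM in Posterior (5.60 ± 0.27). The basement membrane gene COL4A1 was at 726, 403 and 529.6 CPM in Anterior and 78.8, 84.8 and 72.9 CPM in Posterior (2.78 ± 0.18). Among the enzymes, LOXL2, which cross-links collagen, was at 78.8, 51.2 and 63.1 CPM in Anterior and 5.03, 6.16 and 3.46 CPM in Posterior (3.71 ± 0.29). MMP2, a gelatinase, was at 98.5, 104 and 228 CPM in Anterior and 13.9, 22.4 and 22.6 CPM in Posterior (2.77 ± 0.40), with its highest level on day 8. The 1 lower gene of the glycoprotein and proteoglycan list was a brain proteoglycan. Brevican (BCAN), made by glia and progenitors, was lower, at 322, 389.7 and 325 CPM in Anterior, against 635, 592 and 422 CPM in Posterior (-0.67 ± 0.19), a call lost without the day block and without either library of day 6. COL2A1, the cartilage collagen, was the lower collagen at 4.48, 4.86 and 6.45 CPM in Anterior and 11.2, 11.5 and 8.84 CPM in Posterior (-1.02 ± 0.35), also lost without any library of day 6 or 7 and without the day block. Of 20 integrin and laminin genes 11 were higher and 3 lower, or 1 lower without the day block and 0 without day 6. LAMA2, a laminin chain of mesenchymal basement membrane, was at 207, 157 and 145 CPM in Anterior and 0.573, 0.490 and 0.332 CPM in Posterior (8.46 ± 0.35). The collagen receptor ITGA11 was at 321, 102 and 125 CPM in Anterior and 1.35, 1.60 and 1.36 CPM in Posterior (6.85 ± 0.35). The part of fibroblast and meningeal RNA in these counts was not tested.

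Other non-neural lists differed less or were near absent. Of 9 neural crest genes 8 were higher in Anterior. TFAP2B, a crest transcription factor, was at 29.9, 18.2 and 13.5 CPM in Anterior, against 0.182, 0.0516 and 0.0737 CPM in Posterior (7.56 ± 0.59). SNAI2, which drives the detachment of crest cells, was at 43.9, 33.4 and 20.4 CPM in Anterior and 0.469, 0.748 and 0.70 CPM in Posterior (5.65 ± 0.30). SOX10, of crest, Schwann and oligodendrocyte cells, was at 24.4, 25.8 and 15.5 CPM in Anterior and 2.94, 3.43 and 1.66 CPM in Posterior (3.02 ± 0.42). FOXD3, of early crest, was at 3.50, 3.17 and 1.91 CPM in Anterior and at 0 counts in Posterior, which makes Anterior at least 102-fold higher.

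Of 12 mural cell genes 6 were higher and 6 did not pass. The smooth muscle actin gene ACTA2 was at 29.6, 23.1 and 17.7 CPM in Anterior and 0.573, 1.78 and 1.55 CPM in Posterior (4.26 ± 0.61), while the pericyte channel gene KCNJ8 was at 11.9, 11.5 and 9.11 CPM in Anterior and 10.4, 12 and 7.04 CPM in Posterior (0.16 ± 0.18). Of 8 tested endothelial genes 4 were higher and 1 lower (0 lower without the day block or without day 6), with a median of 0.91. Endothelial genes were low, their sum being 23.3, 25.9 and 28.8 CPM in Anterior and 13.2, 14.6 and 6.37 CPM in Posterior. Within that list FLT1, a VEGF receptor, was at 5.14, 2.99 and 6.04 CPM in Anterior and 0.0521, 0.181 and 0.332 CPM in Posterior (4.68 ± 0.40), and CLDN5, of the blood-brain barrier, did not pass at 1.06, 0.720 and 1.05 and 0.912, 0.671 and 0.70 CPM. Of 11 microglia and macrophage genes 3 could be tested, and 1 of them, CD68, was lower (-1.09). The sum of the 3 was 2.09, 2.50 and 3.34 CPM in Anterior and 4.30, 5.03 and 5.67 CPM in Posterior. The microglial genes P2RY12, AIF1, C1QA, C1QB, TYROBP and PTPRC had 0 counts in all 6 libraries, and the globin genes HBB and HBA1 had 0 too. Muscle master regulators were absent, with 0 counts of MYOD1 and MYF5, although the intermediate filament gene DES was at 7.95, 7.17 and 5.59 CPM in Anterior and 0.469, 0.464 and 0.479 CPM in Posterior (3.89 ± 0.30). Of 6 tested muscle genes 4 were higher, and 2 without the day block, without day 8 or without its Posterior library. Cartilage and bone genes were split, with 3 higher and 3 lower of 8 (1 lower without day 6 or its Anterior library). Of the 4 tested epithelial genes 0 passed, and at an unadjusted p under 0.05 the count was also 0.

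**Figure D2:**
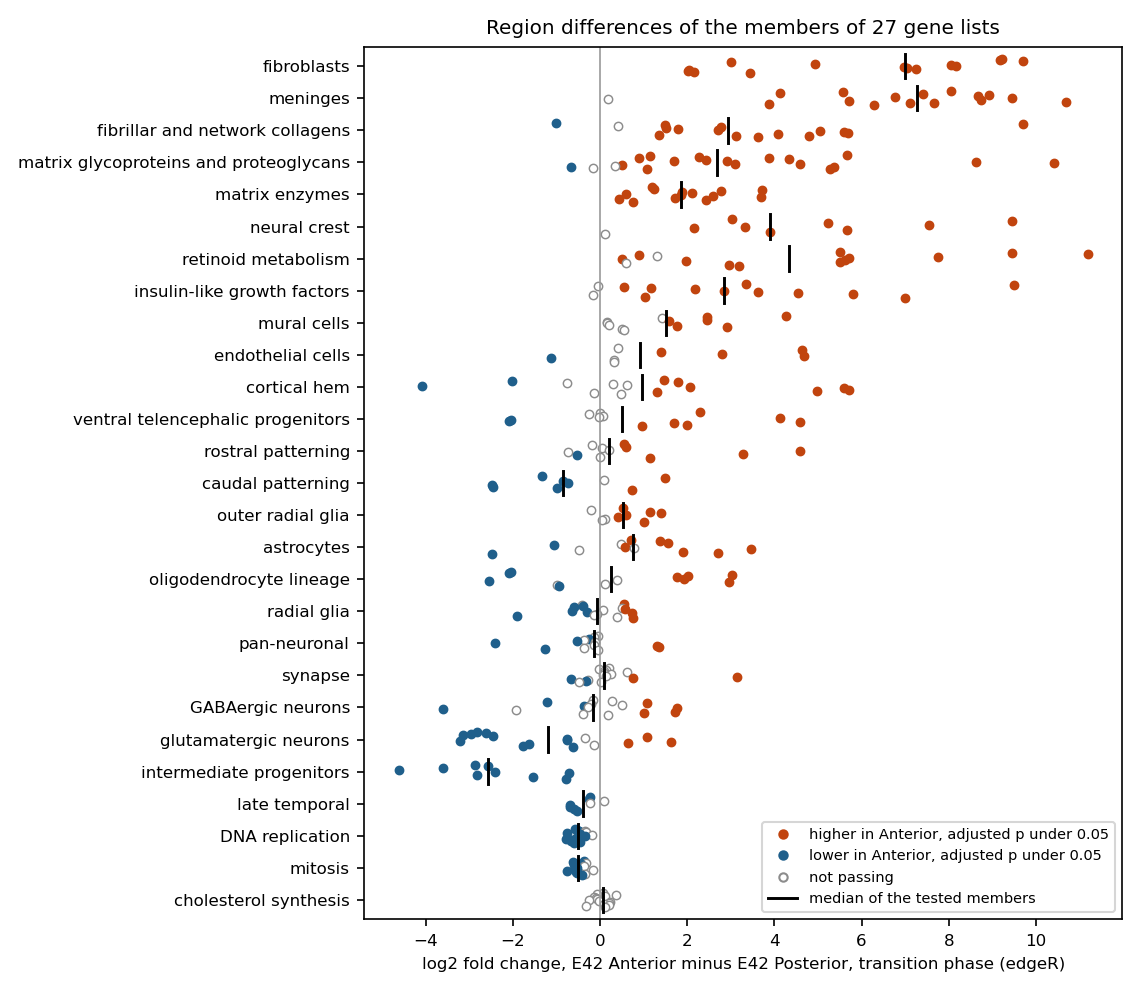
Each point is 1 tested gene of a list, placed at its log2 fold change (E42 Anterior minus E42 Posterior, days 6 to 8), filled where it passed, with the list's median as a bar. Fibroblast and meningeal genes lie far to the right and the intermediate progenitor genes are all to the left of 0.

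Positional genes of the cortex did not all follow the labels of the regions. Of 9 tested caudal patterning genes 6 were lower in Anterior, 2 were higher and 1 did not pass, with a median of -0.85, against 15.1% of all genes that were lower. FGFR3, whose level rises toward the caudal cortex in mouse, was at 36.1, 30.9 and 39.5 CPM in Anterior, against 229, 197 and 171 CPM in Posterior (-2.49 ± 0.15, adjusted p = 1.5e-12, edgeR). NR2F1 (COUP-TFI), a factor of caudal area identity, was at 78.0, 60.3 and 53.0 CPM in Anterior and 184, 161 and 136 CPM in Posterior (-1.34 ± 0.18). The groups did not overlap for either gene (not overlapping and lower, 21.4% of all genes tested). The caudomedial factors EMX2 and DMRTA2 were lower as well, EMX2 at 39.4, 48.3 and 36.0 CPM in Anterior and 91.6, 86.0 and 50.3 CPM in Posterior (-0.85 ± 0.13), and DMRTA2 at 65.8, 73.2 and 49.0 and 156, 135 and 87.2 CPM (-0.99 ± 0.15). LHX2, which specifies cortex, was at 98.0, 105 and 89.7 CPM in Anterior and 199, 172 and 123 CPM in Posterior (-0.73 ± 0.14). For EMX2 and DMRTA2 the groups did not overlap, but the Posterior level on day 8 came near the highest Anterior level. DMRT3 was below 1 CPM in every library, at 0, 0.144 and 0.338 CPM in Anterior and 0.625, 0.825 and 0.553 CPM in Posterior (-2.47 ± 0.73). Its call was lost without the day block (adjusted p = 0.066, edgeR) and in 5 of 9 fits without a library or day.

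NR2F2 (COUP-TFII) ran the other way from NR2F1, at 145, 113 and 123 CPM in Anterior, against 52.7, 46.1 and 36.1 CPM in Posterior (1.5 ± 0.20). It is also a gene of mesenchyme and of ventral telencephalon. At E77 the same contrast of NR2F2 in transition had the opposite sign, -2.41 ± 0.28, with Frontal at 1.72, 1.53 and 1.45 CPM and Occipital at 7.91, 8.06 and 8.82 CPM. The adhesion gene TENM3 was higher too, at 174, 127 and 121 CPM in Anterior and 96.5, 87.9 and 69.8 CPM in Posterior (0.72 ± 0.17). EMX1, a marker of dorsal cortex, did not pass, at 13.9, 15.5 and 9.56 CPM in Anterior and 13.1, 14.9 and 8.91 CPM in Posterior.

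Of 11 tested rostral patterning genes 5 were higher, 1 was lower and 5 did not pass, with a median of 0.21. SP8, which supports rostral area identity, was at 431, 529.9 and 454 CPM in Anterior, against 308, 328 and 333 CPM in Posterior (0.54 ± 0.12). ETV1, a target of FGF signals, was at 450.1, 586 and 545 CPM in Anterior and 306, 364 and 373 CPM in Posterior (0.60 ± 0.19), and DUSP6, an ERK phosphatase and FGF target, at 61.4, 72.4 and 87.5 and 30.3, 33.4 and 36.0 CPM (1.14 ± 0.32). Without the day block 2 rostral genes were higher, and SP8, ETV1 and DUSP6 missed the threshold with adjusted p of 0.11, 0.052 and 0.21 in edgeR. ETV1 was also lost in 7 of 9 fits without a library or day (largest adjusted p = 0.097, edgeR) and DUSP6 in 1. Without day 8, 3 rostral genes were higher, and without Anterior day 8, 2 were lower. The largest rostral difference was in a gene of low level: SIX3, of the rostral forebrain, was at 2.58, 2.94 and 2.78 CPM in Anterior and 0.104, 0.181 and 0.0368 CPM in Posterior (4.59 ± 0.44). FGF18 was at 3.33, 1.32 and 1.13 CPM in Anterior and 0.234, 0.103 and 0.258 CPM in Posterior (3.27 ± 0.65). PAX6, highest rostrally in the cortex of mouse, was at 149, 193 and 242 CPM in Anterior and 216, 217 and 219 CPM in Posterior (-0.18 ± 0.11, adjusted p = 0.25, edgeR). FGF8 had at most 3 counts in a library and was not tested.

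Hem, ventral and more caudal brain lists were mixed. Of 14 tested cortical hem genes 7 were higher and 2 lower, or 1 lower without day 7 or its Posterior library. The higher ones held genes that meninges and crest also express, such as MSX1 at 27.8, 23.5 and 20.0 CPM in Anterior and 0.495, 0.645 and 0.332 CPM in Posterior (5.59 ± 0.33), and BMP4 at 16.6, 14.1 and 10.4 and 0.469, 0.516 and 0.332 CPM (4.97 ± 0.39). Not all hem genes shared this direction, and the WNT genes of this paragraph were picked after their values were seen. WNT3A, which marks the hem, was lower at 0.574, 0.173 and 0.113 CPM in Anterior and 0.938, 1.52 and 0.847 CPM in Posterior (-2.03 ± 0.51, lost in 2 of 9 fits without a library or day). WNT8B did not pass at 0.832, 0.720 and 1.24 CPM in Anterior and 1.25, 1.44 and 2.06 CPM in Posterior (-0.76 ± 0.37, adjusted p = 0.12, edgeR). RSPO3, a secreted WNT enhancer made in the hem, was at 0.545, 0.461 and 0.450 CPM in Anterior and 7.14, 8.67 and 9.32 CPM in Posterior (-4.08 ± 0.38). WNT5A and WNT2B, made by both hem and mesenchyme, were higher, WNT5A at 22.0, 19.9 and 33.6 CPM in Anterior and 5.99, 6.27 and 9.87 CPM in Posterior (1.78 ± 0.20), and WNT2B by 1.46 ± 0.41, a call lost in 5 of 9 fits that leave out a library or a day. Of 6 tested choroid plexus genes 3 were higher and 1 lower (0 lower without day 6 or day 7), with a median of 1.46. Their sums were 28.7, 33.9 and 31.2 CPM in Anterior and 28.7, 30.2 and 26.4 CPM in Posterior. SLC4A5 weighed most in these sums, with up to 1048 counts in a library, against at most 167 for any other member. OTX2, of choroid plexus and caudal forebrain, was at 4.25, 4.81 and 3.26 CPM in Anterior and 0.573, 1.24 and 0.995 CPM in Posterior (2.17 ± 0.33).

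Of 12 ventral telencephalic genes 6 were higher and 2 lower, with a median of 0.51. NKX2-1, a factor of the medial ganglionic eminence, was higher at a low level, at 0.602, 0.489 and 0.60 CPM in Anterior, against 0.0261, 0.0258 and 0.0368 CPM in Posterior, a ratio of counts of 19.5 (95% interval 6.33 to 97.5). The more abundant interneuron factors DLX1, DLX2 and GSX2 did not pass. DLX1 was at 338, 428 and 478 CPM in Anterior, against 388, 403 and 395 CPM in Posterior (0.06 ± 0.26), DLX2 at 247, 265 and 251 and 285, 270.2 and 223 CPM (-0.02 ± 0.28), and GSX2 at 23.3, 22.1 and 12.3 and 25.4, 19.0 and 13.1 CPM (0.00 ± 0.15). ZIC1, of septum, meninges and ventral midline, was higher at 589, 619 and 567 CPM in Anterior and 166, 164 and 117 CPM in Posterior (2.00 ± 0.15). OLIG2, of ventral progenitors and the oligodendrocyte lineage, was lower at 6.57, 6.59 and 2.21 CPM in Anterior and 27.2, 26.8 and 11.6 CPM in Posterior (-2.08 ± 0.29). GSX1 passed mainly through 1 library, with 1.64, 4.12 and 21.0 CPM in Anterior and 1.04, 1.47 and 1.51 CPM in Posterior, and without Anterior day 8 its adjusted p was 0.15 in edgeR. PAX2, of midbrain and optic stalk, was at 2.41, 3.71 and 5.03 CPM in Anterior and 0.0261, 0 and 0.0368 CPM in Posterior, a ratio of counts of 188 (95% interval 51.7 to 1558). The hindbrain and spinal HOX genes of the list had at most 1 count in a library.

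**Figure D3:**
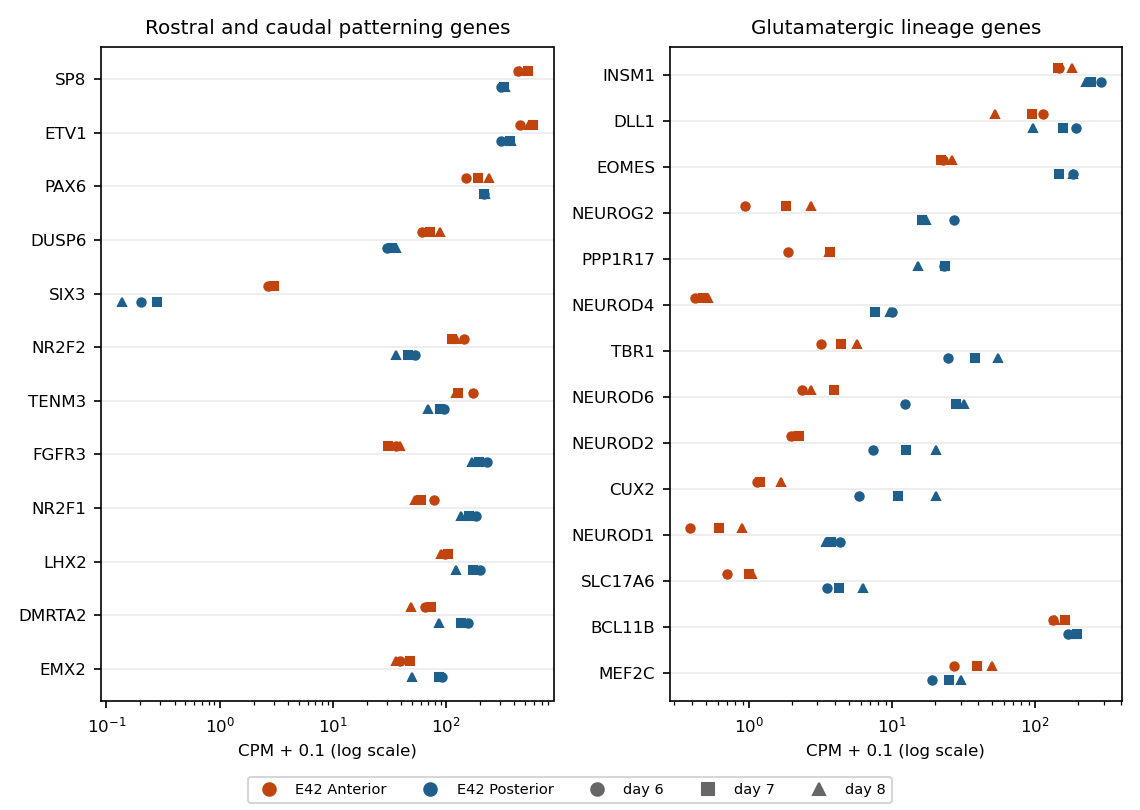
CPM plus 0.1 (log scale) of patterning genes (left) and glutamatergic lineage genes (right), 1 symbol per library, shaped by day. Posterior libraries lie to the right of Anterior ones for FGFR3, NR2F1 and EOMES down to SLC17A6, and to the left for NR2F2 and SIX3.

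Intermediate progenitor genes were lower in Anterior as a group. All 9 were lower, with a median of -2.57, and for 8 of them the groups did not overlap (not overlapping and lower, 21.4% of all genes tested). EOMES, the T-box factor that marks these cells, was at 22.7, 21.7 and 25.9 CPM in Anterior, against 182, 147 and 184 CPM in Posterior (-2.87 ± 0.39, adjusted p = 8.2e-06, edgeR). NEUROG2, the proneural factor upstream of it, was at 0.832, 1.70 and 2.59 CPM in Anterior and 26.9, 16.1 and 17.2 CPM in Posterior (-3.61 ± 0.44). NEUROD4, another proneural factor, was at 0.316, 0.374 and 0.413 CPM in Anterior and 9.80, 7.51 and 9.54 CPM in Posterior (-4.62 ± 0.51). PPP1R17, a phosphatase inhibitor of these cells in primates, was at 1.78, 3.57 and 3.49 CPM in Anterior and 22.8, 23.3 and 15.0 CPM in Posterior (-2.82 ± 0.47). The members that other progenitors also express differed less, such as INSM1 at 147, 143 and 181 CPM in Anterior and 289.9, 245 and 227 CPM in Posterior (-0.70 ± 0.16).

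Glutamatergic neuron genes moved the same way in most cases. Of 16, 11 were lower, 3 were higher and 2 did not pass, with a median of -1.20. TBR1, the factor of the first cortical neurons, was at 3.10, 4.26 and 5.59 CPM in Anterior, against 24.4, 37.8 and 54.7 CPM in Posterior (-3.15 ± 0.30). NEUROD6 was at 2.24, 3.80 and 2.59 CPM in Anterior and 12.2, 27.8 and 31.5 CPM in Posterior (-2.96 ± 0.24), and NEUROD2 at 1.86, 2.13 and 1.95 and 7.19, 12.4 and 20.2 CPM (-2.62 ± 0.32). CUX2, of upper-layer neurons and their progenitors, was at 1.03, 1.09 and 1.58 CPM in Anterior and 5.73, 10.8 and 20.3 CPM in Posterior (-3.21 ± 0.31). In Posterior the level of each of these 4 genes was higher on every later day, while in Anterior each stayed under 6 CPM. The vesicular glutamate transporter gene SLC17A6 was low in both, at 0.602, 0.892 and 0.938 CPM in Anterior and 3.41, 4.13 and 6.11 CPM in Posterior (-2.47 ± 0.34). The deep-layer factor BCL11B, which GABAergic neurons also express, did not pass at 133, 162 and 136 CPM in Anterior and 169, 195 and 185 CPM in Posterior. The higher genes were FOXP2 at 11.5, 8.35 and 11.4 CPM in Anterior and 3.54, 3.43 and 3.20 CPM in Posterior (1.62 ± 0.38), SLC17A7 (1.08 ± 0.32) and MEF2C (0.64 ± 0.17), and without the day block or without Anterior day 8 the count was 1. The calls of SLC17A7 and MEF2C were the ones lost, with adjusted p of 0.099 and 0.058 in edgeR without Anterior day 8, and that of SLC17A7 was lost in 6 of 9 fits without a library or day.

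The largest falls by the naming rule belonged in large part to this lineage: NEUROG2, CUX2, TBR1, NEUROD6, EOMES, PPP1R17 and NEUROD2 were 7 of 12. The others were LOXL4, NRN1, EPHA3, KCNQ3 and FGFR3. NRN1 (neuritin), which promotes neurite growth, was at 1.61, 1.84 and 1.99 CPM in Anterior, against 21.2, 20.6 and 30.0 CPM in Posterior (-3.71 ± 0.37). EPHA3, a receptor in axon repulsion, was at 6.20, 5.58 and 7.05 CPM in Anterior and 46.3, 54.5 and 70.1 CPM in Posterior (-3.18 ± 0.26). KCNQ3, a subunit of the M-current potassium channel, was at 6.34, 7.89 and 13.3 CPM in Anterior and 46.0, 55.2 and 56.4 CPM in Posterior (-2.57 ± 0.23). LOXL4, a lysyl oxidase, was at 0.660, 1.06 and 1.20 CPM in Anterior and 26.5, 10.5 and 6.26 CPM in Posterior (-3.77 ± 0.61), against the direction of its relatives LOX, LOXL1 and LOXL2.

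Genes of neurons in general were mixed. DCX, a microtubule protein of young neurons, was at 1604, 1923 and 2025 CPM in Anterior, against 1718, 1922 and 2089.5 CPM in Posterior, and did not pass (-0.05 ± 0.13, adjusted p = 0.82, edgeR). STMN2, of growth cones, did not pass either, at 85.7, 123 and 123 CPM in Anterior and 97.5, 132 and 134 CPM in Posterior (-0.14 ± 0.29). Of 13 tested pan-neuronal genes 2 were higher, 4 lower and 7 did not pass, and without the day block 0 were higher and 1 was lower. Leaving out a library or a day left 1 or 2 higher and 2 or 3 lower. The neurofilament gene NEFM was higher at 264, 377 and 563 CPM in Anterior and 99.4, 147 and 236 CPM in Posterior (1.35 ± 0.30; without the block, adjusted p = 0.058, edgeR), and RBFOX3, of maturing neurons, was lower at 0.975, 1.55 and 1.5 CPM in Anterior and 3.75, 8.33 and 10.6 CPM in Posterior (-2.42 ± 0.33). Of 16 synapse genes 2 were higher and 2 lower, near the 15.9% and 15.1% of all genes tested. The lower ones were 0 without day 6 or its Anterior library and 1 without either other day or any other library but Anterior day 8. GRIN2B, an NMDA receptor subunit, was at 19.2, 27.6 and 50.1 CPM in Anterior and 1.67, 2.50 and 8.14 CPM in Posterior (3.13 ± 0.34), and GRIA2, an AMPA receptor subunit, at 138, 210.4 and 185 and 238, 295 and 304 CPM (-0.66 ± 0.18). The call of GRIA2 was lost in 4 of 9 fits without a library or day.

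GABAergic genes were split. Of 15 tested, 4 were higher, 3 lower and 8 did not pass, with a median of -0.16, and 2 were higher and 1 lower without the day block, with 1 lower also without day 6 or either of its libraries. GAD1 and GAD2, which make GABA, did not pass, GAD1 at 108, 147 and 105 CPM in Anterior and 126, 143 and 131 CPM in Posterior and GAD2 at 82.4, 101 and 122 and 87.3, 85.0 and 79.0 CPM. Calretinin (CALB2) was higher at 254, 335 and 413 CPM in Anterior, against 80.1, 103 and 113 CPM in Posterior (1.72 ± 0.36; without the block, adjusted p = 0.082, edgeR). MAF, a factor of cortical interneurons, was at 89.7, 84.0 and 49.7 CPM in Anterior and 27.5, 21.3 and 16.5 CPM in Posterior (1.77 ± 0.37). Somatostatin (SST) was at 0.0861, 0.173 and 0 CPM in Anterior and 1.02, 1.52 and 0.589 CPM in Posterior (-3.61 ± 0.62). LHX6, of medial ganglionic eminence interneurons, had at most 2 counts in a library. Among Cajal-Retzius genes, EBF2 was at 16.9, 13.8 and 4.8 CPM in Anterior and 0.234, 0.284 and 0.111 CPM in Posterior (5.77 ± 0.44), and TP73, a defining factor of these cells, did not pass at 3.36, 3.60 and 2.66 and 3.26, 2.37 and 2.62 CPM. Of 6 tested Cajal-Retzius genes 3 were higher and 1 lower, against 1 and 0 without the day block, without day 6 and without day 7. Without either library of day 6 or 7 the higher count was 1 too, and the lower count was 0 without Anterior day 6 or Posterior day 7.

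Radial glia genes showed no single direction. Of 15, 4 were higher, 5 lower and 6 did not pass, with a median of -0.07. Without the day block 2 were higher, and without day 6 2 were higher and 3 lower. The call of SOX2 was lost in 1 of 9 fits without a library or day (largest adjusted p = 0.090, edgeR). FABP7, a lipid-binding protein of radial glia, was at 2047, 2187 and 1876 CPM in Anterior, against 1394, 1522 and 1229 CPM in Posterior (0.56 ± 0.12), and VIM, which fibroblasts also express, at 2665, 2618 and 2359 and 1746, 1813 and 1652 CPM (0.55 ± 0.15). SOX2 (-0.38 ± 0.10) and GLI3 were lower, GLI3 at 439.6, 471 and 429 CPM in Anterior and 760.2, 717 and 622 CPM in Posterior (-0.64 ± 0.16). DACH1, a dorsal progenitor factor, was at 9.70, 8.35 and 8.48 CPM in Anterior and 42.8, 31.6 and 26.7 CPM in Posterior (-1.91 ± 0.18). The outer radial glia list, whose cells populate the expanded subventricular zone of primates, had 6 of 9 higher and 0 lower, against 15.9% of all genes tested that were higher. The higher count was 4 without the day block, 4 without day 8, and 4 to 6 with a library or day left out. TNC, a matrix protein that fibroblasts also make, was at 1238, 1514 and 419 CPM in Anterior and 428, 668 and 249.8 CPM in Posterior (1.15 ± 0.28), and FAM107A was at 71.9, 50.9 and 119.6 and 23.4, 22.8 and 44.9 CPM (1.4 ± 0.24). HOPX, a marker of these cells, was at 189, 242 and 166 CPM in Anterior and 128, 187 and 105 CPM in Posterior (0.52 ± 0.18), so its groups overlapped, and its call was lost without the day block (adjusted p = 0.16, edgeR) and in 7 of 9 fits without a library or day (largest adjusted p = 0.15). PTPRZ1 did not pass at 1685, 1894 and 1356 CPM in Anterior and 1824, 2296 and 1622 CPM in Posterior.

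Astrocyte genes were mostly higher in Anterior, 7 of 12 against 2 lower. GFAP, the glial filament, was at 1735, 1824 and 1657 CPM in Anterior, against 574, 772 and 701 CPM in Posterior (1.37 ± 0.19). APOE, a lipid carrier that meningeal cells also make, was at 811, 580.3 and 569 CPM in Anterior and 59.5, 67.0 and 51.6 CPM in Posterior (3.47 ± 0.34). S100B was at 41.7, 59.6 and 56.0 CPM in Anterior and 16, 19.3 and 17.9 CPM in Posterior (1.55 ± 0.14). The glutamate transporter SLC1A2 was lower at 6.28, 8.20 and 10.6 CPM in Anterior and 10.7, 17.6 and 25.8 CPM in Posterior (-1.06 ± 0.19). In the oligodendrocyte list 5 of 12 were higher and 4 lower (2 without the day block), with OLIG1 and OLIG2 lower while SOX10 was higher. OLIG1 was at 4.13, 4.75 and 1.16 CPM in Anterior and 17.2, 16.9 and 7.44 CPM in Posterior (-2.05 ± 0.29). Genes that rise with the age of progenitors were lower in 6 of 8, among them SOX6 at 122, 137 and 135 CPM in Anterior and 213, 213 and 209 CPM in Posterior (-0.69 ± 0.13) and POU3F2 at 113, 140.3 and 161 and 221, 206 and 203 CPM (-0.61 ± 0.10), and in 3 of 8 without day 6. Of 10 early progenitor genes 3 were higher and 1 lower (0 lower without the day block), and the RNA-binding protein gene LIN28B did not pass at 0.516, 0.806 and 1.28 CPM in Anterior and 0.729, 0.722 and 1.66 CPM in Posterior.

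Cell cycle genes were modestly lower in Anterior. Of 16 DNA replication genes 13 were lower and 0 higher, with a median of -0.50. MCM7, of the replication helicase, was at 129.9, 109 and 83.9 CPM in Anterior, against 194, 193 and 154 CPM in Posterior (-0.75 ± 0.12). PCNA, the polymerase clamp, was at 101, 84.8 and 81.2 CPM in Anterior and 134, 134 and 103 CPM in Posterior (-0.47 ± 0.10). Of 16 mitosis genes 12 were lower, with a median of -0.50. TOP2A, which untangles chromosomes, was at 444, 356 and 312 CPM in Anterior and 587, 549 and 577 CPM in Posterior (-0.63 ± 0.16), and the proliferation antigen gene MKI67 at 581, 465 and 403 and 669, 613 and 583 CPM (-0.38 ± 0.13). The mitosis count depended on single libraries. It was 0 without day 8, 3 without the Posterior library of day 8, 6 without the Anterior library of day 7 or of day 8, and 4 without the day block. Without day 8 the log2 fold change was -0.28 for MKI67 and -0.49 for TOP2A, and the call of MKI67 was lost in 6 of 9 fits without a library or day.

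Retinoid genes were the signalling list with the largest median, 4.34, and 12 of 14 were higher with 0 lower. The higher count was 9 without day 8. ALDH1A2, which makes retinoic acid in the meninges, was at 171, 145 and 22.6 CPM in Anterior, against 0.156, 0.258 and 0.0368 CPM in Posterior (9.46 ± 0.60). ALDH1A3, which makes it in the forebrain and eye, was at 26.7, 32.1 and 37.5 CPM in Anterior and 0, 0.0258 and 0 CPM in Posterior, a ratio of counts of 3298 (95% interval 592 to 130317). RDH10, which makes the precursor retinal, was at 82.3, 49.0 and 40.3 CPM in Anterior and 6.25, 6.42 and 5.56 CPM in Posterior (3.18 ± 0.17). The binding proteins CRABP1 and CRABP2 were at 32.0, 23.2 and 16 and 39.4, 30.7 and 53.8 CPM in Anterior, against 0.0782, 0.103 and 0.147 and 0.756, 0.748 and 0.774 CPM in Posterior (7.74 ± 0.44 and 5.72 ± 0.54). RARB, a receptor gene that retinoic acid itself induces, was at 3.64, 3.02 and 33.3 CPM in Anterior and 0.0521, 0.232 and 0.405 CPM in Posterior (5.63 ± 0.69). ALDH1A2 was thus lowest on day 8 of Anterior, the day on which RARB was highest. CYP26A1, which degrades retinoic acid, did not pass at 0.201, 0.432 and 0.900 CPM in Anterior and 0.234, 0.310 and 0.368 CPM in Posterior.

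Day 8 of E42 Anterior stood apart in a set of genes that was chosen after the values were seen and is given with no test. Of 10563 named genes at 10 CPM or more in that library, 29 were at least 3 times the highest of the other 5 libraries (on CPM + 1). For Posterior day 8 the same count was 0 of 10173. DHRS3, which turns retinal back to retinol and which retinoic acid induces, was at 1.12, 0.547 and 98.5 CPM in Anterior, against 1.28, 0.954 and 1.80 CPM in Posterior. Its fold change over the 3 days (2.95 ± 0.91) came from that library. Without it the value was -0.0020, and without both libraries of day 8 it was -0.43. SULT1E1, an estrogen sulfotransferase, was at 1.75, 1.47 and 89.2 CPM in Anterior and at 0 counts in Posterior, so that Anterior was at least 899-fold higher. TGFBI, a secreted matrix protein, was at 11.5, 7.48 and 101 CPM in Anterior and 0.104, 0.103 and 0.221 CPM in Posterior (7.6 ± 0.48), and was higher on the earlier days too. CEMIP, which degrades hyaluronan, was at 13.5, 13.2 and 82.1 CPM in Anterior and 0.782, 1.11 and 2.58 CPM in Posterior (4.34 ± 0.33). RET, a receptor kinase, was at 0.889, 0.662 and 11.3 CPM in Anterior and 0.208, 0.206 and 0 CPM in Posterior, and EYA2, a transcriptional coactivator, at 3.56, 2.82 and 40.4 and 1.64, 0.954 and 6.23 CPM. RIPPLY1, a repressor of T-box factors in somites of mouse, was at 0.201, 0.403 and 10.8 CPM in Anterior and 0.703, 0.206 and 0.810 CPM in Posterior (1.70 ± 0.66, adjusted p = 0.054, edgeR), and its log2 fold change was -0.18 without Anterior day 8.

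**Figure D4:**
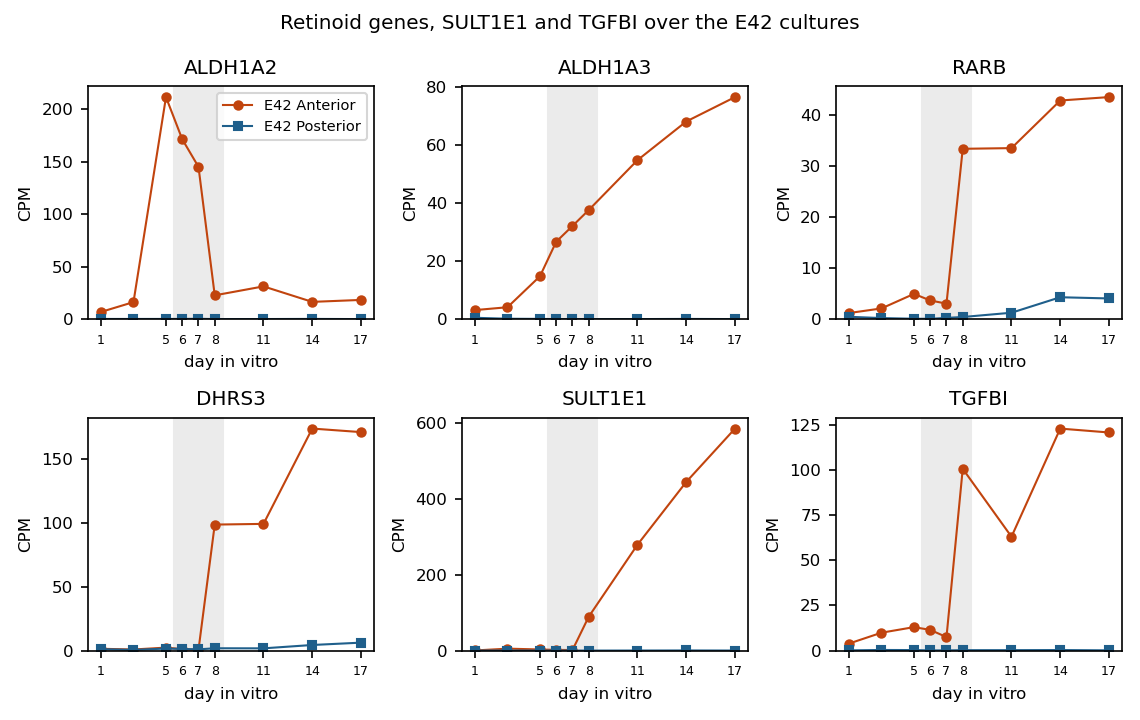
CPM (linear scale from 0) of 6 genes against day in vitro in E42 Anterior and E42 Posterior, 1 point per library, with the transition days shaded. ALDH1A2 drops between days 7 and 8 of Anterior, where RARB, DHRS3, SULT1E1 and TGFBI go up and then stay high to day 17.

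The levels of day 8 carried on in the later libraries of that region. DHRS3 stood at 99.0, 173 and 171 CPM on days 11, 14 and 17 of E42 Anterior, against 1.75, 4.37 and 6.20 CPM in E42 Posterior. SULT1E1 stood at 279, 444 and 584 CPM on those days of Anterior and RARB at 33.4, 42.8 and 43.4 CPM. ALDH1A2 stayed low in Anterior, at 31.1, 16.4 and 18.3 CPM on days 11, 14 and 17, after 6.80, 16.2 and 211 CPM on days 1, 3 and 5. At E77 the day 8 level of DHRS3 was 23.0 CPM in Frontal and 18.2 CPM in Occipital, and that of RARB was 6.59 and 0.427 CPM. With 1 library per region and day, a day and a library cannot be told apart.

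Genes of the insulin-like growth factor system were higher in 11 of 13, with a median of 2.85. IGFBP5, a binding protein, was at 4727, 2586 and 2669 CPM in Anterior, against 284, 314 and 216 CPM in Posterior (3.63 ± 0.34). The protease PAPPA, which frees IGF from its binding proteins, was at 18.3, 12.2 and 4.46 CPM in Anterior and 0.0521, 0.103 and 0.111 CPM in Posterior (6.99 ± 0.50). The receptors did not pass: IGF1R was at 165, 151 and 159 CPM in Anterior and 159, 167 and 165 CPM in Posterior (-0.05 ± 0.10), and INSR at 95, 92.4 and 102 and 115, 110.1 and 102 CPM (-0.18 ± 0.09).

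In the BMP list 6 of 15 were higher and 1 lower (0 lower without day 6, either of its libraries, day 7, Posterior day 7 or Anterior day 8). The targets ID1 and ID3, inhibitors of proneural factors, were higher, ID1 at 75.4, 68.4 and 38.6 CPM in Anterior and 11.5, 12.9 and 17.9 CPM in Posterior (2.16 ± 0.51) and ID3 at 136, 132 and 88.5 and 15.4, 17 and 24.5 CPM (2.70 ± 0.47). The ligand gene BMP5 was at 2.18, 2.33 and 3.15 CPM in Anterior and 0, 0.0516 and 0 CPM in Posterior, a ratio of counts of 131 (95% interval 35.8 to 1084). BMP7, a ligand gene of the hem list, did not pass at 58.7, 68.9 and 67.3 CPM in Anterior and 80.6, 78.4 and 57.4 CPM in Posterior. Of 19 WNT genes 7 were higher and 2 lower (1 without the day block, day 6, day 7, Anterior day 6 or 7, or Posterior day 7 or 8). AXIN2, a target of the pathway, was at 87.2, 80.0 and 68.1 CPM in Anterior and 43.4, 41.7 and 43.5 CPM in Posterior (0.87 ± 0.16), and the secreted inhibitor FRZB at 54.9, 35.7 and 44.3 and 1.88, 1.06 and 1.14 CPM (5.03 ± 0.29). WNT7B, a ligand of cortical neurons and progenitors, was lower at 2.41, 1.32 and 2.55 CPM in Anterior and 5.11, 8.85 and 11.2 CPM in Posterior (-2.03 ± 0.45).

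Of 15 FGF and ERK target genes 5 were higher and 0 lower, 3 were higher without the day block, and 1 was lower without Anterior day 8. The feedback inhibitors SPRY1 and SPRY4 were at 97.2, 117 and 85.7 and 54.9, 61.9 and 118 CPM in Anterior, against 51.2, 55.8 and 28.1 and 28.3, 33.5 and 43.5 CPM in Posterior (1.19 ± 0.22 and 1.10 ± 0.22). Without the block the adjusted p of SPRY4 was 0.066 in edgeR. ETV5 and ETV4 did not pass (0.21 ± 0.25 and 0.04 ± 0.20). In the Notch list, of 16 genes, 4 were higher and 5 lower, with 2 lower without day 6, without its Posterior library or without day 8, and 3 without day 7 or Anterior day 8. HEYL and HEY2, targets in vessel walls and mesenchyme, were higher, HEYL at 20.0, 13.5 and 12 CPM in Anterior and 2.66, 2.22 and 0.921 CPM in Posterior (3.08 ± 0.44). HES1 and the ligands DLL1 and DLL3, of neural progenitors, were lower, DLL1 at 114, 95 and 52.1 CPM in Anterior and 192, 157 and 95.8 CPM in Posterior (-0.78 ± 0.17). The call of DLL3 was lost in 5 of 9 fits without a library or day. Of 10 Hedgehog genes 2 were higher and 1 lower, near the 15.9% and 15.1% of all genes tested. GLI1, the readout of the pathway, was at 1.23, 0.979 and 0.750 CPM in Anterior and 0.182, 0.103 and 0.184 CPM in Posterior (2.68 ± 0.57). In the TGF-beta and YAP list 4 of 13 were higher and 2 lower (0 lower without the day block and 1 without any of the 3 days or 6 libraries), and CCN2, a target of both, did not pass at 8.69, 6.04 and 14.5 CPM in Anterior and 4.53, 4.18 and 2.80 CPM in Posterior (1.25 ± 0.62).

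Guidance and adhesion genes were higher in 12 of 20 semaphorin, slit and netrin genes, 6 of 17 ephrin and Eph genes and 6 of 14 cadherin genes, and lower in 1, 2 and 2 (in 1 of each list without the day block or without day 7). The lower cadherin count was also 1 without day 6 or 8 or any library but Anterior day 7, the lower ephrin count 1 without either library of day 7, and the lower semaphorin, slit and netrin count 2 without Posterior day 6. SLIT1, a repellent, was the lower one at 10.3, 11.7 and 20.6 CPM in Anterior, against 39.2, 52.7 and 73.4 CPM in Posterior (-1.97 ± 0.29), while SLIT2 was higher at 38.2, 34.8 and 36.9 and 13.4, 16.5 and 14.5 CPM (1.31 ± 0.29). EPHA7, graded along the cortex in mouse, was at 105, 103 and 72.5 CPM in Anterior and 12.1, 19.6 and 12.1 CPM in Posterior (2.70 ± 0.30), against the sign of EPHA3. EFNA5, a ligand of both, was at 71.0, 68.7 and 80.2 CPM in Anterior and 38.1, 44.2 and 41.5 CPM in Posterior (0.82 ± 0.15). CDH11, a mesenchymal cadherin, was at 177, 156 and 203 CPM in Anterior and 24.2, 35.5 and 28.7 CPM in Posterior (2.61 ± 0.14), and CDH6 was at 100.5, 127 and 165 and 32.7, 52.8 and 65.1 CPM (1.41 ± 0.17).

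Of 15 cholesterol synthesis genes 0 passed in edgeR, and 0 of them had an unadjusted p under 0.05. Without Anterior day 7, 1 was higher, and without Posterior day 8, 1 was lower. Of 16 genes of glycolysis and hypoxia 2 were higher, near the 15.9% of all genes tested. They were ADM, a vessel-dilating peptide, at 1.98, 1.84 and 11.5 CPM in Anterior and 0.0261, 0.206 and 0.0737 CPM in Posterior (5.15 ± 0.62), and NDRG1 at 20.5, 11.4 and 20.5 and 3.67, 4.46 and 7.40 CPM (1.77 ± 0.28). The pyruvate kinase gene PKM did not pass at 341, 341 and 323 CPM in Anterior and 347, 336 and 295 CPM in Posterior (0.04 ± 0.11). Of 13 genes of amino acid and unfolded protein stress 6 were higher. HSPA5, the chaperone of the endoplasmic reticulum, was at 410.0, 375 and 514 CPM in Anterior, against 185, 266 and 246 CPM in Posterior (0.91 ± 0.14), and XBP1 at 103, 75.5 and 104 and 43.8, 51.6 and 61.5 CPM (0.86 ± 0.12). ATF4, which drives the amino acid response, did not pass at 391, 266 and 346 CPM in Anterior and 298, 254 and 343 CPM in Posterior. Of 13 interferon response genes 5 were higher, with IFIT2 at 32.0, 26.8 and 25.6 CPM in Anterior and 15.6, 14.8 and 11.6 CPM in Posterior (1.0 ± 0.15). Of 10 immediate early genes 3 were higher, and 1 without the day block, day 6, day 8, Anterior day 7 or Posterior day 8.

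The region difference was next set against that of the stem phase (days 1, 3 and 5, with FGF2) and the terminal phase (days 11, 14 and 17), which used other libraries of the same series. The labels do not say whether these days are other cultures, so shared calls may not be independent. Anterior against Posterior passed for 35.5% of genes in the stem phase and 35.8% in the terminal phase. Of the 6459 genes called in transition 4171 were called with the same sign in the stem phase, 64.6% of the transition and 56.5% of the stem calls. With the terminal phase the shared calls were 4683, or 72.5% and 62.9%. The region difference itself changed between stem and transition for 5.5% of genes (1143), and between transition and terminal for 1.34% (279). The first count was 350 without the day block and 509 to 2056 with a library left out, the lowest without Anterior day 3 and the highest without Anterior day 5. Of the 1143, 32.5% were higher, against 53.4% of those called in limma on log2(RPKM + 1).

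Genes of contractile cells and of TGF-beta responses were among those whose region difference was lower in transition than in the stem phase by the most. CCN2 was at 2603, 614 and 28.4 CPM in Anterior on days 1, 3 and 5, against 40.7, 3.12 and 2.53 CPM in Posterior, and the change of its region difference was -4.70 ± 0.89 (adjusted p = 0.0030, edgeR). CNN1, a smooth muscle calponin, changed by -5.10 ± 1.54, just under the threshold (adjusted p = 0.0496, edgeR). Of 12 mural cell genes 8 had a lower region difference in transition than in the stem phase, against 3.71% of all genes, and of 13 TGF-beta and YAP genes 7 did. In Anterior ACTA2 was at 2024, 1084 and 117 CPM in the stem phase and 29.6, 23.1 and 17.7 CPM in transition. The difference was larger in transition for C7 (5.42 ± 1.26), ASPN (3.34 ± 0.72), PEAR1 (3.21 ± 0.90) and OGN (2.70 ± 0.78). Of 9 outer radial glia genes 5 had a higher region difference in transition than in the stem phase, against 1.79% of all genes, and of 15 radial glia genes 6 did.

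For many glutamatergic genes the region difference was lower in transition than in the stem phase. Of 16, 8 had a lower one and 2 a higher one, against 3.71% and 1.79% of all genes. TBR1 was at 7.35, 4.71 and 4.26 CPM in Anterior in the stem phase, against 3.27, 3.38 and 6.61 CPM in Posterior (0.29 ± 0.30 between regions), and the change to transition was -3.44 ± 0.42 (adjusted p = 1.0e-04, edgeR). In the terminal phase TBR1 was at 11.1, 14.6 and 18 CPM in Anterior and 104, 119 and 113 CPM in Posterior (-2.98 ± 0.28). For EOMES the region difference was -2.56 ± 0.42 in stem, -2.87 ± 0.39 in transition and -2.39 ± 0.38 in terminal, and the change from stem to transition was -0.31 ± 0.55 (adjusted p = 0.83, edgeR).

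Against the terminal phase the region difference in transition was higher for SOX10 (4.21 ± 0.63), which was at 1.70, 1.24 and 2.55 CPM on days 11, 14 and 17 in Anterior and 3.53, 2.75 and 5.54 CPM in Posterior. It was higher as well for HAS2, a hyaluronan synthase (3.86 ± 0.92), and for CRABP1 (3.54 ± 0.62). It was lower for FOXC1 (-3.19 ± 0.50) and TWIST1 (-2.69 ± 0.62), mesenchymal factors. FOXC1 was at 229, 270.4 and 349 CPM in Anterior on those days, and at 0.134, 0.0982 and 0.100 CPM in Posterior. The count of 279 genes was the least settled of these, with 57 without the day block, 480 in the DESeq2 Wald test and 62 to 445 with a library left out, the lowest without Anterior day 17 and the highest without Anterior day 11.

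At E77 the matching regions, Frontal against Occipital on days 6, 7 and 8, passed for 10.5% of genes (2193), 6.77% higher and 3.78% lower. Of the E42 calls 15.4% were called with the same sign there, 994 genes, which were 45.3% of the E77 calls. The region differences of the ages differed for 12.5% of genes (2604), 1425 of them higher and 1179 lower at E42. Without the day block the count was 1216, and in limma on log2(RPKM + 1) 37.8% of the calls were higher, against 54.7% in edgeR. Fibroblast genes were among the higher ones: 12 of 14 had a higher region difference at E42, and of 16 meningeal genes 10 did, against 6.85% of all genes. COL1A1 was at 14, 6.08 and 5.18 CPM in E77 Frontal and 0.288, 0.426 and 0.285 CPM in E77 Occipital (4.56 ± 0.65). The summed level of the genes of fibroblasts at E77 was lower in Frontal, at 856, 872 and 611 CPM, than in Occipital, at 998, 1038 and 916 CPM, although the median of its members was 0.82. Cell cycle genes were among the lower ones: 13 of 16 replication and 14 of 16 mitosis genes had a lower region difference at E42 than at E77, against 5.67% of all genes, and their E77 medians were 0.11 and 0.28.

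Patterning genes were alike in sign at both ages in some cases and opposite in others. FGFR3 was lower anteriorly at E42 (-2.49 ± 0.15) and frontally at E77 (-1.92 ± 0.14), and SIX3, higher at E42 (4.59 ± 0.44), had at most 4 counts in an E77 library of these days. NR2F1 had the same sign, -3.94 ± 0.20 at E77, with a test of the difference of 2.60 ± 0.26 (adjusted p = 2.1e-07, edgeR). NR2F2 differed in sign, and its difference between ages was 3.91 ± 0.34 (adjusted p = 4.1e-08, edgeR). NEUROD6, lower in E42 Anterior, was near 0 at E77, at 0, 0.243 and 0.305 CPM in Frontal and 0, 0 and 0.0356 CPM in Occipital. EOMES was at 12.1, 16.4 and 13.1 CPM in E77 Frontal and 4.20, 6.09 and 4.66 CPM in E77 Occipital (1.47 ± 0.43).

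**Figure D5:**
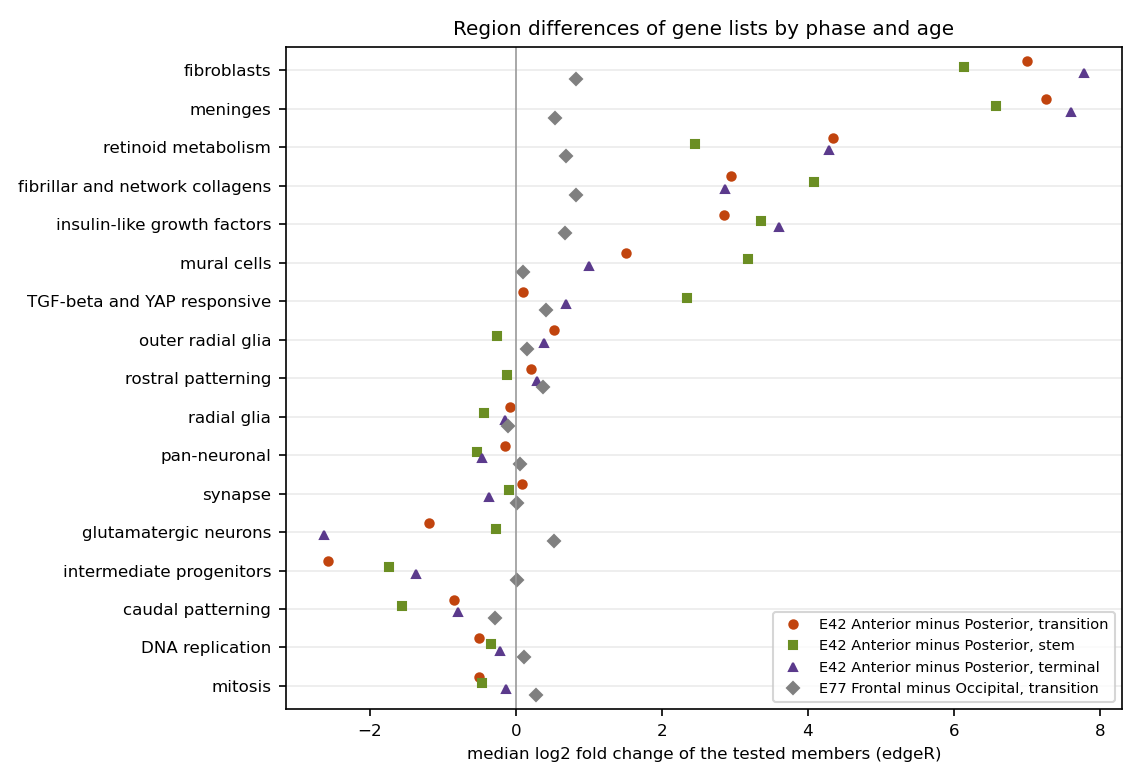
Median log2 fold change of the tested members of each list, for E42 Anterior minus Posterior in transition, stem and terminal phase and for E77 Frontal minus Occipital in transition. Fibroblast and meningeal medians are above 6 in each E42 phase and below 1 at E77.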

How the data were processed

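RNA was sequenced after poly(A) priming and a strand-specific dUTP preparation, per the labels. The authors deposited raw counts per gene and RPKM values for 38 libraries, and STAR and featureCounts are named in the submitters' processing notes, where versions, build and annotation are not given in the sources used here. Counts of all 38 libraries were fitted in edgeR 4.0.16 (R 4.3.3) with 12 groups of region, age and phase, day in vitro as a block, TMM scaling, filterByExpr (20794 of 34619 genes) and a robust quasi-likelihood test with 19 residual degrees of freedom. Adjustment (Benjamini-Hochberg) ran over all tested genes. Deposited RPKM values served for levels between genes and for a limma 3.58.1 alternative, and DESeq2 1.42.0 was another. Same-day libraries deviated together (correlations of 0.278, 0.229 and 0.388 on days 6, 7 and 8), and the day comes from the labels, so days were taken as pairs. No 2 of the 6 libraries agreed within sampling noise. Count ratios and floors cover counting error only.

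The comparison and the 51 gene lists were chosen with earlier results of these data known. Genes named by rule were the 12 largest rises and falls (at least 10 CPM in the higher region, counts in both, 1 sign on all days), all rostral and caudal patterning genes, up to 4 passing genes per other list (where under 2 passed, the 2 of highest level), and up to 6 genes per direction for each difference between phases or ages. The following were named after their values were seen: ATF4, AXIN2, BCAN, BCL11B, BMP7, CDH6, CLDN5, COL4A1, CYP26A1, DCN, DCX, DLL1, DLX1, DLX2, EFNA5, FABP7, FGF2, FOXP2, GAD1, GAD2, GFAP, GSX2, HES1, HES5, HOPX, IGF1R, IGFBP5, INSM1, INSR, KCNJ8, LIN28B, LOX, LOXL1, MEF2C, MKI67, OLIG1, PCNA, PDGFRA, PKM, PTPRZ1, RARB, RDH10, S100B, SLC17A6, SLC17A7, SLC1A2, SLC6A13, SLIT2, SOX2, STMN2, TBX15, TP73, TWIST2, VIM, WNT2B, WNT3A, WNT5A, WNT7B, WNT8B, XBP1 and ZIC1. The list genes KCNE2, TUBB3, ZBTB20, HBA2, HBG1, KRT19, AMOTL2, CYP26C1 and PCDH8 were not analysed here. A few genes that the rules name are not reported here.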

Additional observations from a re-analysis of the deposited data

Results flagged for a closer look

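The region difference of a gene was set against that of another phase or age by a test of the difference itself in edgeR, with p-values adjusted over all tested genes, and the genes named by rule all passed. Values are log2 changes of the Anterior minus Posterior difference. Many of these genes stood at or near 0 counts in 1 of the 4 groups, where the size of a fitted value depends on the fit and is no bound.

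From stem to transition the region difference was lower for COLEC10 (-6.19), CLIC5 (-5.36), CNN1 (-5.10), BDNF (-5.07) and CCN2 (-4.70). These include CNN1, a calponin of smooth muscle, CCN2, a matricellular protein, and the neurotrophin gene BDNF. It was higher for PDK4 (2.45), OGN (2.70), PEAR1 (3.21), ASPN (3.34), ARHGAP36 (3.44) and C7 (5.42), among them OGN and ASPN, proteoglycans of connective tissue.

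Between terminal phase and transition it was lower in transition for WFIKKN2 (-5.01), ARSI (-3.88), FOXC1 (-3.19), KIAA1755 (-3.15), SPON2 (-2.84) and TWIST1 (-2.69), and higher for KCNA1 (3.04), ADRA2A (3.04), SLC6A17 (3.22), CRABP1 (3.54), HAS2 (3.86) and SOX10 (4.21). The lower ones include FOXC1 and TWIST1, factors of mesenchyme, and the higher ones SOX10, a factor of glia and neural crest.

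Between ages, with Anterior minus Posterior at E42 against Frontal minus Occipital at E77, it was lower at E42 for NEUROD2 (-7.97), NEUROD6 (-6.45), NRN1 (-5.86), ATP12A (-4.96), LOXL4 (-4.8) and EOMES (-4.34). Of these NEUROD2, NEUROD6 and EOMES belong to the glutamatergic lineage. It was higher at E42 for ISLR (9.44), WNT4 (9.45), ADAMTS2 (9.50), OGN (11.39), OSR1 (11.56) and SCARA5 (11.69), among them OGN and OSR1 of the meningeal list.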

How the results depend on the processing

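The count of genes that differed between Anterior and Posterior was 6459, against 4251 in a fit of the 6 libraries alone without the day block, 1745 in a test against a fold of 1.5 (glmTreat), and 3919 to 5504 with a library or day left out. The lowest counts were 3919 without day 6 and 4154 without day 8. Over the gene lists 362 members were called, 213 with glmTreat and 290 to 332 with a library or day left out, and of the genes named by rule 192 were called, 134 with glmTreat and 162 to 182 with a library or day left out. Higher genes made up 51.3% of the calls, 58.0% with DESeq2 size factors, 34.2% and 34.5% in limma on RPKM with pseudocounts of 1 and 0.1, and 85.5% with glmTreat. DHRS3 turned sign without Anterior day 8 (-0.0020) and without day 8 (-0.43), and ranged up to 3.74 with another library left out, and no other named gene that passed turned sign in the alternatives run. Genes that did not pass could, as RIPPLY1 did without day 8 (-0.45).

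Without the day (replicate) block the count for the regions was 4360, for the change from stem to transition 350 against 1143, for transition against terminal phase 57 against 279, and for E42 against E77 1216 against 2604. The list counts it moved by over 1.5 times are given beside their results. The change from stem phase ranged over 509 to 2056 calls with a library left out, the extremes being without Anterior day 3 and day 5. Transition against terminal phase gave 62 to 445 calls, the extremes being without Anterior day 17 and day 11, 480 with the DESeq2 Wald test and 64 with the 18 E42 libraries alone, and E42 against E77 gave 1954 to 2280. Genes of under 1 CPM in both regions rest on few reads, and their folds depend on the fit.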
